A study of Arabidopsis thaliana with 12 samples.

Results

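Wounding in the light for 60 min was examined as a comparison of 6 of the 12 arrays of an Arabidopsis thaliana experiment, 3 from wounded and 3 from intact rosettes that stood in the same light. The members described are the 13567 of 22810 probe sets on the array that are no Affymetrix control and reached a log2 value of 4 or more on at least 3 of the 12 arrays. The plants, grown in days of 10 h light and 14 h dark, were acclimatised for 30 min at 22 °C under a photon flux of 250 µmol m-2 s-1. Leaves were then crushed with a haemostat or the plants were left intact, and all were collected 60 min later. The other 6 arrays came from wounded and intact rosettes treated in the same way in the dark. Each array carried 1 RNA extract pooled from 15 to 17 plants, and each of 3 independent experiments held all 4 treatments, so that wounded and intact arrays were paired by experiment. Whole rosettes were harvested, crushed and uncrushed tissue together, and no group was handled without being crushed, so that touch and crushing cannot be told apart. In such bulk tissue a loss of cells of a type and less RNA per cell cannot be told apart either.

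A crushed leaf releases cell contents that neighbouring cells sense, and calcium enters the cytosol within the leaf and in leaves connected to it. Calcium-binding proteins and protein kinases relay that signal, and the oxylipin hormone jasmonate is made from chloroplast lipids. Jasmonoyl-isoleucine then removes JAZ repressors from MYC transcription factors and frees defence genes, while growth-related transcripts are often reduced. The same early transcripts are also known from leaves exposed to microbial elicitors, to cold or to touch.

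The arrays were evenly scaled, with a median log2 value of 5.40 to 5.60 on each of the 12. The leaf transcript RCA, for Rubisco activase, stood near the top of the scale at a mean of 15.19 in wounded and 15.18 in intact rosettes, and the photosystem I subunit PSAE-1 at 14.83 and 14.95 in the same order. The root marker EXPA7 (1.87 in wounded, 1.86 in intact) and the shoot apex marker CLV3 (2.05 and 2.02) stood at the floor of the array. The root transcript PYK10 was measurable in both, with ranges of 8.25 to 9.33 in wounded and 7.77 to 9.39 in intact rosettes. Only 2 of 7 leaf, 2 of 6 root and 1 of 7 flower and apex markers had a named probe set, and none of the 10 guard cell, trichome and phloem markers did, so shifts in those cell types could not be followed. The control probe set for 25S ribosomal RNA read 7.27, 8.46 and 6.34 in wounded rosettes, against 6.95, 7.61 and 7.25 in intact ones, in overlapping ranges.

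Wounding changed the level of 27.3% of the tested probe sets within the hour, and the rises were larger than the falls. With a threshold of 0.05 on the p adjusted by Benjamini-Hochberg, limma with the experiment as a block called 3699 of 13567, of which 1560 were higher (11.5%) and 2139 lower (15.8%) in wounded rosettes. The 3 wounded arrays lay clear of the 3 intact ones for 37.0% of the tested probe sets, above them for 13.4% and below them for 23.6%. The rises had a median size of 1.25 on the log2 scale and the falls one of 0.64. Of the rises 993 were at least 2-fold, 395 at least 4-fold and 50 at least 16-fold, whereas of the falls 437 were at least 2-fold, 34 at least 4-fold and none 16-fold. Without the block 2015 probe sets passed, all of them among the 3699, with 1151 higher (8.48%) and 864 lower (6.37%). Rises thus made up 42.2% of calls with the block, 57.1% without it, 46.2% after centring each array on its median, and 60.3% with both changes. Over everything tested the median change was -0.15 (-0.12 after centring), and list medians are also given relative to it. The counts of calls in gene groups below stand against these shares, 11.5% higher and 15.8% lower with the block and 8.48% and 6.37% without it.

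Among the called probe sets all 3 differences had the sign of the call for 1554 of the 1560 rises and 2135 of the 2139 falls. A call favours probe sets whose 3 differences agree, so this count is no separate evidence of agreement. Over all tested probe sets the median change was -0.12, -0.17 and -0.13 in experiments 1, 2 and 3. The median rise was 1.18, 1.47 and 1.14 in experiments 1, 2 and 3, and the median fall -0.57, -0.73 and -0.58. Leaving out any single light array kept 1123 of the rises and 904 of the falls in all 6 fits. Without the intact array of experiment 2 the calls dropped to 2384, and without the whole of experiments 1, 2 or 3 to 2299, 1656 and 2439.

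The share of rises differed with how bright a transcript was in intact rosettes. Of 399 probe sets whose intact mean lay below log2 4, 39.6% were called higher and 1.5% lower in wounded rosettes. Dim ones entered the test mostly through groups in which they are bright, so that this share is set in part by the filter. Among 1722 probe sets at an intact level of 10 to 12, 9.06% were higher and 18.6% lower. At 12 and above 6.19% of 630 were higher and 10.6% lower, and the median rise was 0.82, against 2.01 in the dimmest class.

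**Figure D1:**
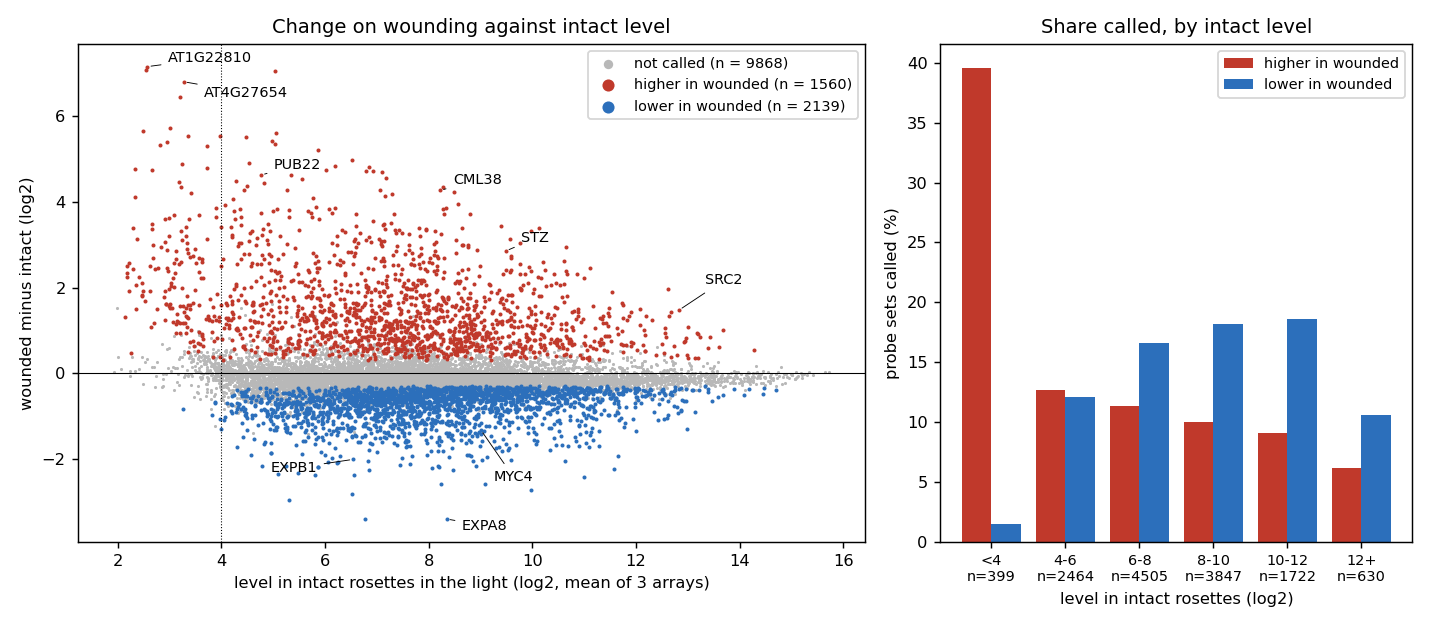
Left, the log2 change (wounded minus intact) of each of the 13567 tested probe sets against its mean level in the 3 intact arrays in the light, with 1560 called higher in red, 2139 called lower in blue, and a dotted line at log2 4. Right, the percentage of probe sets called in each class of intact level: 39.6% were called higher below log2 4 and 6.19% at 12 and above.

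Transcripts that stood near the floor in intact rosettes reached moderate or high levels after wounding. AT1G22810 read 9.83, 9.93 and 9.45 in wounded rosettes, against 2.42, 2.16 and 3.13 in intact ones. AT4G27654 read 10.26, 10.11 and 9.87 in wounded rosettes, against 3.20, 3.34 and 3.28 in intact ones. AT5G52050, annotated as the efflux carrier DTX50 of the detoxification family, read 10.00, 9.39 and 9.54 in wounded rosettes, against 4.04, 2.77 and 2.77 in intact ones. In none of these did a wounded array come near an intact one. Set against log2 4, the level of the filter, the wounded means were at least 53.3, 67.7 and 50-fold higher, and limma's adjusted p was 0.00019, 2.3e-07 and 1.4e-05. The other genes of this kind were AT1G19210, AT3G53600, AT3G55840, AT5G12340 and AT5G38700, with intact means below log2 4 and wounded means of 8.15 to 9.53. The files give them a locus only.

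Where both group means were at least log2 5, the largest named rises were those of AT2G22880 (4.99 ± 0.63, adjusted p = 0.00047), AT3G02840 (4.74), AT1G15010 (4.73), AT4G29780 (4.72) and AT5G65300 (4.28), all given by locus alone. The ± here and below is the SE of limma's fit on the log2 scale, over 3 arrays a group. AT2G22880 read 11.53, 11.75 and 11.22 in wounded rosettes, against 6.97, 6.61 and 5.95 in intact ones. AT5G65300 read 9.55, 9.56 and 9.50 in wounded rosettes, against 5.39, 5.16 and 5.22 in intact ones, a gap of more than 4 log2 units in each experiment. Among the brightest rises of at least 2-fold were SRC2, a C2-domain protein first known as a cold-regulated gene (14.16, 14.26 and 14.50 in wounded rosettes, against 13.10, 12.41 and 12.97 in intact ones), AT4G36500 (1.44 ± 0.22) and AT2G32150 (2.33 ± 0.26).

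Of the falls, the steepest with both means at log2 5 or above were AT3G62550 (-2.59 ± 0.25, adjusted p = 0.00014), AT5G47610 (-2.20 ± 0.34), AT5G59350 (-2.19 ± 0.25) and AT1G69160 (-2.16 ± 0.21). AT3G62550 read 6.16, 6.69 and 6.62 in wounded rosettes, against 8.77, 9.67 and 8.79 in intact ones. AT1G71970 read 6.31, 7.32 and 7.06 in wounded rosettes, against 8.24, 9.33 and 8.88 in intact ones, with experiment 1 lowest in both groups and differences of -1.93, -2.01 and -1.82 in the 3 experiments. Among the brightest falls of at least 2-fold were AT1G73600 (-1.05 ± 0.22), AT1G01490 (-1.04 ± 0.10) and AT3G20820 (-1.07 ± 0.11). Without the block AT1G73600 did not pass (adjusted p = 0.31), while the other two did.

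Most calcium sensor transcripts rose in wounded rosettes. Of 8 tested, 6 were higher and 1 lower, where 11.5% of all probe sets were higher and 15.8% lower, with a median change of 1.45, or 1.60 above the median of all tested probe sets. CML38, a calmodulin-like protein, read 12.77, 12.45 and 12.26 in wounded rosettes, against 8.84, 8.13 and 7.69 in intact ones. CML37 read 9.63, 9.52 and 9.15 in wounded rosettes, against 4.96, 3.91 and 4.71 in intact ones, and AT1G76640, annotated as calmodulin-like 39, read 8.83, 8.53 and 6.77 in wounded rosettes, against 5.66, 4.23 and 2.83 in intact ones. In each experiment the wounded array was at least 3 log2 units above its intact partner for all 3 genes. The changes were 4.27 ± 0.53 (adjusted p = 0.00042), 4.91 ± 0.53 and 3.80 ± 0.38. CML41 (1.58 ± 0.13) and CML23 (1.32 ± 0.22) rose less, and CML42 (0.76 ± 0.22) passed with the block but not without it (adjusted p = 0.22) and lost its call in 4 of the 6 fits that left out 1 light array (at most 0.13, without the intact array of experiment 2). The chloroplast calcium sensor CaS was the one that fell (-0.38 ± 0.10), a call that was likewise lost without the block (0.078) and in 4 fits that left out 1 array (at most 0.076, without the intact array of experiment 3). CML30 did not pass (-0.46 ± 0.29).

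Of 9 tested IQD genes, scaffolds that bind calmodulin, 5 fell and 2 rose (15.8% and 11.5% of all probe sets), and their median lay -0.52 from that of all probe sets. IQD22, in Arabidopsis one of a family of microtubule-linked scaffolds, read 10.12, 9.99 and 9.21 in wounded rosettes, against 7.90, 7.70 and 7.19 in intact ones and rose by 2.17 ± 0.18. IQD24 (-1.15 ± 0.21) and IQD28 (-0.97 ± 0.12) had the largest falls. Among calcium pumps, exchangers and glutamate receptor-like channels 2 of 7 rose and 1 fell, and without the block 1 rose and none fell. ACA.l (AT1G13210) rose by 1.45 ± 0.29. Its annotation as an autoinhibited calcium ATPase is doubtful, since the locus is also known as ALA11, a phospholipid flippase. Its rise is thus not shown to be that of a calcium pump. The channel gene GLR2.8 read 6.55, 6.71 and 7.95 in wounded rosettes, against 5.10, 5.18 and 6.37 in intact ones. Experiment 3 was highest in both groups, and without the block GLR2.8 did not pass (adjusted p = 0.065).

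U-box ubiquitin ligases rose by up to 24.8-fold. Of 8 tested, 5 were higher and 3 did not pass, and the median change was 1.90, against 11.5% called higher among all probe sets. PUB22, which with PUB23 and PUB24 dampens immune signalling in Arabidopsis, read 9.45, 9.65 and 9.09 in wounded rosettes, against 5.02, 4.53 and 4.75 in intact ones. PUB23 read 10.61, 10.72 and 10.51 in wounded rosettes, against 6.93, 7.15 and 7.30 in intact ones, and PUB19 10.94, 10.26 and 10.37 in wounded rosettes, against 7.11, 7.27 and 7.10 in intact ones. Wounded and intact arrays stood far apart for all 3 genes, and the changes were 4.63 ± 0.34, adjusted p = 4.9e-05 for PUB22, 3.48 ± 0.25 for PUB23 and 3.37 ± 0.70 for PUB19. PUB24 rose by 2.11 ± 0.30 and PUB43 by 1.69 ± 0.18. The members that did not pass stood near 0: PUB25 0.05 ± 0.21, PUB26 -0.09 ± 0.17 and PUB49 -0.09 ± 0.14. Of 21 tested ubiquitin-specific proteases and conjugating enzymes 2 rose, UBP20 (1.42 ± 0.23) and UBC16 (0.39 ± 0.13). UBC16 kept its call neither without the block (adjusted p = 0.51) nor in 5 of the 6 fits that left out 1 light array (at most 0.19, without the intact array of experiment 2).

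Of 13 tested genes of immune receptors, kinases and signalling 6 rose, 1 fell and 6 did not pass, with a median change of 0.63. Among all probe sets 11.5% rose and 15.8% fell. BIK1, the cytoplasmic kinase that acts below several immune receptors, read 10.07, 10.12 and 10.14 in wounded rosettes, against 8.53, 7.80 and 8.76 in intact ones. The wounded arrays were nearly equal and the intact ones spread over almost a log2 unit, and the change was 1.74 ± 0.27, adjusted p = 0.0013. B120, a receptor-like kinase, rose by 3.84 ± 0.59, the Pto-interacting kinase PTI1-4 by 1.76 ± 0.18, and EFR, the receptor of bacterial elongation factor Tu, was at least 1.5-fold higher, its intact mean set at log2 4. CSA1, a resistance protein of the TIR class, was the one that fell (-0.66 ± 0.13), not without the block (adjusted p = 0.067). Among 6 tested RALF peptides, secreted ligands of receptor kinases, RALFL22 rose by 1.19 ± 0.18 and RALFL33 by 0.68 ± 0.13, and neither passed without the block (adjusted p = 0.078 and 0.12).

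Transcription factors with a family name in the annotation moved in both directions. Genes whose annotation lacks such a name are not in these counts. Among WRKY factors 2 of 5 rose. WRKY22, a regulator downstream of immune MAP kinases, read 8.83, 8.57 and 8.74 in wounded rosettes, against 4.71, 4.12 and 4.47 in intact ones, which is 19.5-fold (4.28 ± 0.35, adjusted p = 7.2e-05). WRKY6 read 8.53, 8.68 and 8.35 in wounded rosettes, against 7.11, 6.38 and 6.39 in intact ones, and WRKY53, a senescence regulator, did not pass (0.80 ± 0.28). The zinc finger repressor STZ read 12.43, 12.32 and 12.27 in wounded rosettes, against 9.87, 9.55 and 9.03 in intact ones and rose by 2.86 ± 0.42. Of 6 tested AP2/ERF factors 2 rose and 2 fell. ORA47, an activator of jasmonate synthesis genes, read 10.64, 9.87 and 9.98 in wounded rosettes, against 7.41, 7.76 and 6.06 in intact ones and rose by 3.09 ± 0.37, adjusted p = 0.00037. TINY (tny in the files) read 5.14, 6.16 and 4.41 in wounded rosettes, against 2.95, 3.42 and 3.36 in intact ones, with the highest wounded value in experiment 2, and its wounded mean was at least 2.35-fold higher than log2 4.

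In the bZIP family 3 of 13 rose and 2 fell, and without the block 3 rose and none fell. BZIP60 (1.39 ± 0.19) and BZIP28 (0.80 ± 0.12), membrane-bound factors of the unfolded protein response, were among the rises, as was BZIP53 (0.93 ± 0.19). BZIP60 read 11.34, 11.17 and 11.60 in wounded rosettes, against 10.00, 9.84 and 10.10 in intact ones. Of the 13 tested genes of endoplasmic reticulum stress BZIP60 and BZIP28 were the 2 that rose. BZIP17, another membrane-bound factor tested in both groups, did not pass. The calreticulin CRT1b fell by 0.58 ± 0.17, a call absent without the block (adjusted p = 0.18) and in 5 of the 6 fits without 1 light array (at most 0.14, without the intact array of experiment 2). Among bHLH factors 1 of 15 rose, NAI1 (1.99 ± 0.29), which is needed for endoplasmic reticulum bodies, and 3 fell, MYC4 furthest. Of MYB, homeobox, TCP and B3 factors 1 of 13 rose and 5 fell. NGA3 read 5.37, 4.66 and 3.87 in wounded rosettes, against 3.17, 2.93 and 2.94 in intact ones, with 3 intact values near the floor, and HAT2, a homeodomain factor induced by auxin, read 5.25, 5.27 and 4.88 in wounded rosettes, against 6.76, 6.91 and 6.13 in intact ones and fell by 1.46 ± 0.12.

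Few genes of jasmonate synthesis and modification were named in the annotation, and all 4 of these were tested. Of 4 tested 2 rose and 2 did not pass. OPCL1, the ligase that activates the jasmonate precursor for beta-oxidation, read 12.87, 13.08 and 12.15 in wounded rosettes, against 10.98, 10.89 and 9.98 in intact ones. Experiment 3 was lowest in both groups and the differences of 1.89, 2.19 and 2.17 were alike (2.08 ± 0.28, adjusted p = 0.00058). DLAH, annotated as an acylhydrolase of the DAD1-like family that frees fatty acids from lipids, read 3.94, 4.68 and 4.13 in wounded rosettes, against 2.71, 2.78 and 2.75 in intact ones. Its intact values and the lowest wounded one lay below log2 4. In the light only wounded arrays thus reached the level of the filter, and the size of this rise near the floor is uncertain. AIM1 of beta-oxidation (-0.22 ± 0.10) and the jasmonate methyltransferase JMT (0.68 ± 0.28) did not pass. In signalling and response 3 of 7 rose and 1 fell. GRX480, a glutaredoxin that binds TGA factors, read 11.41, 11.38 and 11.22 in wounded rosettes, against 8.91, 7.56 and 7.40 in intact ones and rose by 3.38 ± 0.51. JRG21 rose by 1.35 ± 0.33, not without the block (adjusted p = 0.088) and in 3 of 6 fits not without 1 light array (at most 0.073, without the wounded array of experiment 2). MYC4, one of the bHLH activators of jasmonate responses, read 7.39, 8.05 and 7.62 in wounded rosettes, against 8.80, 9.54 and 8.66 in intact ones and fell by 1.32 ± 0.12, adjusted p = 0.00011. Its paralogue MYC3 did not pass (0.03 ± 0.16), and a difference between the paralogues was not tested.

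**Figure D2:**
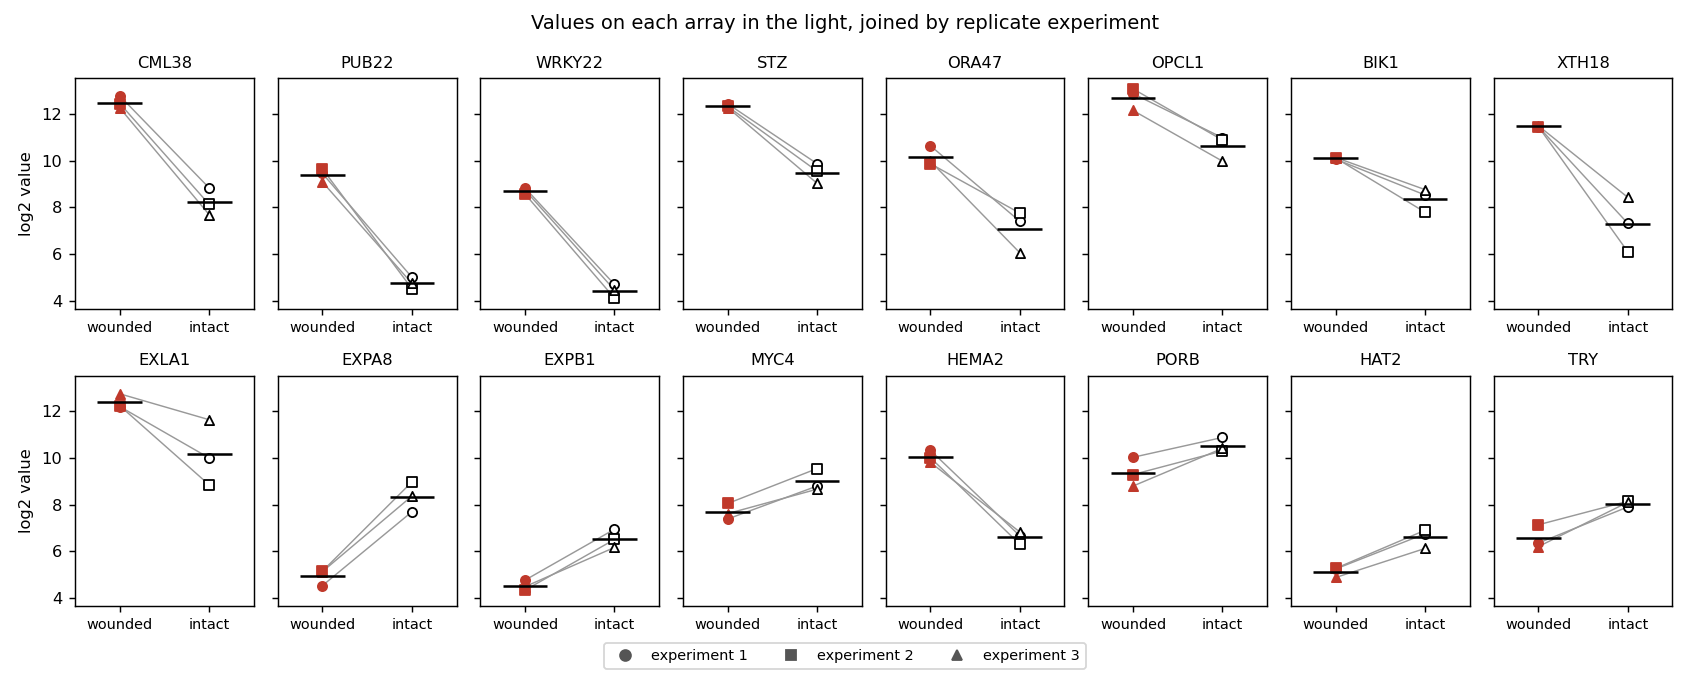
Log2 values of 16 named genes on each light array, wounded at left (red) and intact at right (open), joined by experiment, with bars at the mean of 3 arrays. The 3 lines of a gene run the same way in every panel, and the groups overlap in none of the 16.

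Of 8 tested auxin genes 4 fell and 1 rose (3 and 1 without the block), where falls also outnumbered rises among all probe sets (15.8% and 11.5%). IAA18, a repressor of auxin response, rose by 1.56 ± 0.19. HAT2, given above, fell, as did UGT74D1 (-0.87 ± 0.14), a glucosyltransferase of auxins. WES1, also known as GH3.5, which joins auxin to amino acids, read 4.88, 4.21 and 3.82 in wounded rosettes, against 5.89, 5.62 and 4.90 in intact ones and fell by 1.17 ± 0.29, a call lost without the block (adjusted p = 0.062) and in 3 of 6 fits without 1 light array (at most 0.076, without the wounded array of experiment 2). Of 12 tested gibberellin, cytokinin and ethylene genes 5 fell and 1 rose (3 and 1 without the block). The gibberellin receptor gene GID1B rose by 0.81 ± 0.14, and the cytokinin response regulator RR16 read 5.58, 5.52 and 5.92 in wounded rosettes, against 6.69, 6.45 and 6.86 in intact ones and was 1.99-fold lower (adjusted p = 0.00042).

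Genes of cold, dehydration and abscisate were higher in 5 of 11 cases and lower in 2. Without the block the counts were 3 and 1. LTI30, a dehydrin, read 12.25, 11.99 and 11.89 in wounded rosettes, against 10.11, 9.22 and 10.44 in intact ones and rose by 2.12 ± 0.30, adjusted p = 0.00085. COR47, another dehydrin, rose by 1.01 ± 0.14. XERICO, a RING protein that raises abscisate levels, fell by 1.02 ± 0.18.

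UDP-glycosyltransferases, which attach sugars to hormones and secondary metabolites, split. Of 30 tested 7 rose and 15 fell, against 11.5% and 15.8% of all probe sets, and without the block 4 rose and 8 fell. Their median lay -0.35 from that of all tested. UGT76E12 read 8.67, 8.61 and 6.84 in wounded rosettes, against 5.49, 4.30 and 3.36 in intact ones and rose by 3.66 ± 0.51, adjusted p = 0.00075. UGT73B5 rose by 2.15 ± 0.47, and UGT71B5, with an intact mean below log2 4, was at least 3.34-fold higher. UGT76E1 read 5.72, 6.24 and 3.52 in wounded rosettes, against 2.74, 2.72 and 2.71 in intact ones, at the floor in intact rosettes, and its rise lost the call in 3 of 6 fits that left out 1 light array (at most 0.058, without the wounded array of experiment 1). Among the falls UGT72B3 changed by -1.40 ± 0.14, and UGT76B1, which glycosylates salicylate and other immune regulators, by -1.75 ± 0.30. UGT76B1 did not pass without the block (adjusted p = 0.096). Of 11 tested CYP71B cytochromes P450 7 fell and 4 did not pass, with a median -0.62 from that of all tested. CYP71B36 read 4.69, 4.86 and 5.59 in wounded rosettes, against 6.46, 7.28 and 6.78 in intact ones and fell by 1.79 ± 0.28. Without the block 3 of the 11 fell, and CYP71B26 (-1.68 ± 0.17) was lost (adjusted p = 0.056).

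Phenylpropanoid and flavonoid genes were higher in 2 and lower in 3 of 11 cases. Without the block 1 was higher and none lower, although 6 had an unadjusted limma p under 0.05 with the block. These counts include CHI (AT2G43570), which at this locus is a putative chitinase and not a flavonoid gene. CCR2, a cinnamoyl-CoA reductase of lignin synthesis, read 9.32, 9.81 and 9.06 in wounded rosettes, against 6.01, 5.54 and 5.72 in intact ones and was 12.5-fold higher (3.64 ± 0.38, adjusted p = 0.00018). 4CL8 read 8.02, 7.05 and 5.97 in wounded rosettes, against 6.32, 4.69 and 3.28 in intact ones, in overlapping groups whose 3 paired differences were 1.69, 2.37 and 2.69, and did not pass without the block (adjusted p = 0.065). UF3GT, a flavonoid glycosyltransferase, fell by 1.14 ± 0.21, again not without the block (0.15). Of 6 tested peroxidases, a list that also holds ascorbate peroxidases and a peroxiredoxin, AT5G64120 rose (1.59 ± 0.24). MSRB9, a methionine sulphoxide reductase, rose by 1.70 ± 0.30. Of the 15 glutathione and redox genes tested with it 2 rose and 3 fell, and without the block 2 rose and none fell.

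Cell wall loosening genes moved in opposite directions. Of 10 tested expansins 3 rose and 3 fell. The expansin-like A genes were those that rose. EXLA1 read 12.20, 12.23 and 12.74 in wounded rosettes, against 10.00, 8.85 and 11.63 in intact ones, with intact values far apart and wounded ones close together, and rose by 2.23 ± 0.38. EXLA3 read 5.91, 5.28 and 6.32 in wounded rosettes, against 3.62, 2.85 and 3.22 in intact ones, at least 3.58-fold higher with the intact mean set at log2 4, and EXLA2 rose by 2.07 ± 0.17. Of the alpha- and beta-expansins EXPA8, EXPB1 and EXPA4 fell, and the other 3 tested did not pass. EXPA8, an alpha-expansin, read 4.54, 5.16 and 5.14 in wounded rosettes, against 7.69, 8.97 and 8.36 in intact ones, which is 10.6-fold lower (-3.40 ± 0.18, adjusted p = 8.3e-06). EXPB1, a beta-expansin, read 4.77, 4.34 and 4.49 in wounded rosettes, against 6.95, 6.51 and 6.17 in intact ones and fell by 2.01 ± 0.12. EXPA4 fell by 0.74 ± 0.18, not without the block (adjusted p = 0.06) and in 4 of 6 fits not without 1 light array (at most 0.069, without the wounded array of experiment 2).

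Of 6 xyloglucan endotransglucosylases, which cut and rejoin hemicellulose, 2 rose. XTH18 read 11.46, 11.46 and 11.50 in wounded rosettes, against 7.32, 6.11 and 8.43 in intact ones, and its wounded arrays were nearly equal while the intact ones spread by over 2 log2 units. It was 18.2-fold higher (4.18 ± 0.51, adjusted p = 0.0004). XTH19, its neighbour in the genome, read 9.34, 8.94 and 10.39 in wounded rosettes, against 7.51, 5.88 and 9.13 in intact ones, in overlapping groups with paired differences of 1.82, 3.06 and 1.26, and did not pass without the block (adjusted p = 0.11). XTH33 did not pass (1.36 ± 0.48). Of 18 cellulose synthase-like and other wall enzymes 5 rose and 3 fell. IRX15-L of xylan synthesis rose by 2.53 ± 0.27, CSLD2, a cellulose synthase-like protein, by 1.73 ± 0.22, and the pectin methylesterase ATPMEPCRB by 1.46 ± 0.18. In the TBL family of wall acetylation 4 of 16 fell and 1 rose, with 2 and 0 without the block. TBL25 read 8.81, 8.80 and 8.91 in wounded rosettes, against 9.74, 10.10 and 10.00 in intact ones, a change of -1.10 ± 0.16.

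**Figure D3:**
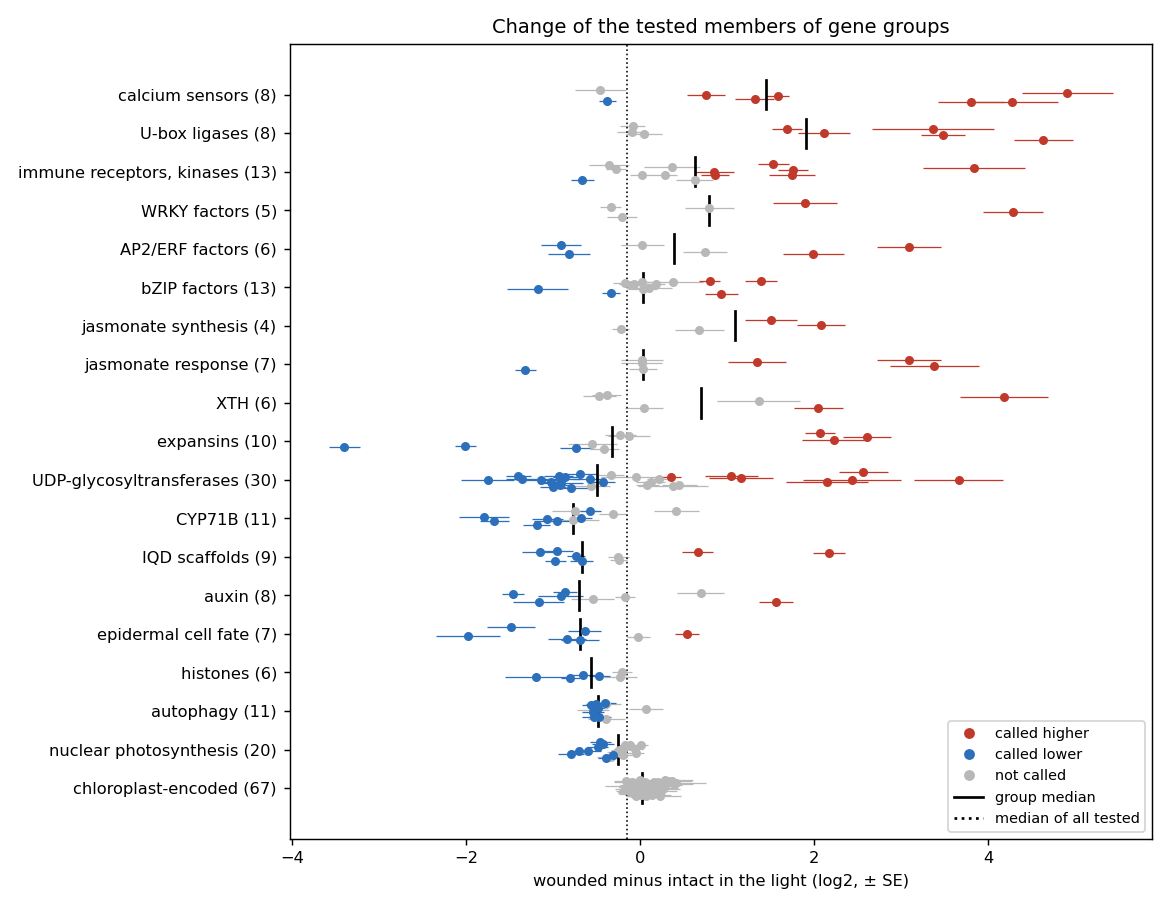
Change (wounded minus intact in the light, log2, ± SE) of each tested member of 19 gene groups, numbers of members in brackets, with called rises in red, called falls in blue and uncalled members in grey. Group medians are black bars and the dotted line is the median of all tested probe sets, -0.15; calcium sensors, U-box ligases, WRKY factors and XTH genes reach beyond 4, and the 67 chloroplast-encoded transcripts stay within -0.16 and 0.42.

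Carriers and the membrane traffic machinery held single strong changes. GTR1, the importer that loads glucosinolates into phloem, read 12.63, 12.44 and 11.99 in wounded rosettes, against 10.16, 10.18 and 9.97 in intact ones and rose by 2.25 ± 0.18, adjusted p = 6.2e-05. AT1G68570, annotated as NRT1/PTR family member 3.1, read 8.03, 8.36 and 9.22 in wounded rosettes, against 9.74, 10.46 and 10.79 in intact ones and fell by 1.80 ± 0.27. Of 6 tested carriers of that family 2 rose and 1 fell. Among SWEET and other sugar carriers 1 of 9 rose and 3 fell (0 and 1 without the block). SWEET1 (-0.89 ± 0.19) was the fall that passed both ways. SWEET16, a vacuolar carrier, rose by 1.26 ± 0.38 but lost its call in 5 of 6 fits without 1 light array (at most 0.14, without the wounded array of experiment 1).

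Of 12 ESCRT subunits, which sort membrane proteins for degradation, 3 rose and 1 fell, where 11.5% and 15.8% of all probe sets did. VPS2.1 read 11.11, 11.50 and 11.30 in wounded rosettes, against 10.31, 10.30 and 10.29 in intact ones and rose by 1.01 ± 0.12. VPS60.1 rose by 0.99 ± 0.17 and ELC, a subunit of the first complex, by 0.69 ± 0.10. The exocyst subunit SEC15B rose (0.99 ± 0.17) as 1 of 6. Of 5 tetraspanins TET8, a membrane protein of secreted vesicles, rose by 1.42 ± 0.20 and TET3 fell by 0.70 ± 0.13. Of 11 tested autophagy genes 7 fell and 4 did not pass, where 15.8% of all probe sets fell, with changes between -0.57 and 0.07 and a median -0.34 from that of all probe sets. ATG8F, a ubiquitin-like protein of autophagosomes, read 10.72, 11.11 and 11.01 in wounded rosettes, against 11.27, 11.83 and 11.45 in intact ones and fell by 0.57 ± 0.10, adjusted p = 0.0032. Its paired differences were -0.55, -0.72 and -0.44. Only 1 of the 11 passed without the block (6.37% of all probe sets fell), where ATG8F had an adjusted p of 0.11, and 6 passed after median centring.

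Among tubulins and the microtubule-associated TRM genes some fell and none rose, where 15.8% of all probe sets were lower and 11.5% higher. Of 7 tested tubulins 2 fell, TUB5 (-0.71 ± 0.11) and TUB6 (-0.40 ± 0.10). TUB6 lost its call in 2 of 6 fits without 1 light array (at most 0.063, without the intact array of experiment 2). In the TRM list 2 of 8 fell. The list also holds TRM82, which shares the symbol but is not of the microtubule-associated family. Without the block 2 tubulins and 2 TRM genes also fell, where 6.37% of all probe sets did. TRM24 read 2.48, 2.89 and 2.47 in wounded rosettes, against 4.18, 5.55 and 4.59 in intact ones and TRM19 fell by 1.11 ± 0.21. Of 6 tested histones 4 fell (2 without the block), and HON4, a protein of the linker histone class, read 8.67, 8.42 and 8.32 in wounded rosettes, against 9.34, 9.28 and 9.21 in intact ones and fell by 0.80 ± 0.11, adjusted p = 0.00069. Fes1C, a nucleotide exchange factor of Hsp70, fell by 1.22 ± 0.23 as 1 of 7 heat shock genes.

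Of 7 tested genes of epidermal cell fate 5 fell and 1 rose, where 15.8% and 11.5% of all probe sets did. Without the block 2 fell, where 6.37% of all did, and none rose (6 of 7 had an unadjusted limma p under 0.05 with it). GIS, a zinc finger factor that promotes trichomes, read 3.51, 4.21 and 4.77 in wounded rosettes, against 5.51, 6.35 and 6.55 in intact ones. TRY, a MYB repressor of trichome fate, read 6.36, 7.14 and 6.20 in wounded rosettes, against 7.90, 8.14 and 8.10 in intact ones. Wounded and intact arrays were separate for both, and the falls were -1.97 ± 0.37 and -1.48 ± 0.27. The peptide gene STOMAGEN, which promotes stomata, fell by 0.84 ± 0.22, not without the block (adjusted p = 0.12) and not in 3 of 6 fits without 1 light array (at most 0.098, without the intact array of experiment 2). SPCH, which starts the stomatal lineage, did not pass (-0.02 ± 0.13).

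Some photosynthesis transcripts of the nucleus fell slightly, and those of the chloroplast genome did not pass. Of 20 nuclear genes 8 fell and 12 did not pass, where 15.8% of all probe sets fell. Without the block 2 fell, near the 6.37% of all probe sets. The largest falls were in subunits and partners of the chloroplast NDH complex. PIFI read 11.16, 11.49 and 11.18 in wounded rosettes, against 11.90, 12.32 and 11.71 in intact ones and fell by 0.70 ± 0.10, adjusted p = 0.0009. NdhS fell by 0.79 ± 0.15 (without the block, adjusted p = 0.088). NdhL fell by 0.60 ± 0.14 and lost its call in 3 of 6 fits without 1 light array (at most 0.068, without the wounded array of experiment 2). Of 67 chloroplast-encoded transcripts none passed limma's test, with or without the block, and 1 had an unadjusted p under 0.05. The brightest, atpB, read 15.42, 15.35 and 15.34 in wounded rosettes, against 15.38, 15.35 and 15.30 in intact ones. This lies close to the top of the scale, where a change may be compressed. None of 5 mitochondria-encoded transcripts passed in either fit, and 0 had an unadjusted p under 0.05 in limma.

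In tetrapyrrole synthesis 1 of 9 tested genes rose and 2 fell. HEMA2, a glutamyl-tRNA reductase at the first committed step of haem and chlorophyll synthesis, read 10.33, 10.01 and 9.81 in wounded rosettes, against 6.66, 6.30 and 6.83 in intact ones. All wounded arrays stood about 3 log2 units or more above the intact ones, a 10.9-fold rise (3.45 ± 0.34, adjusted p = 0.00016). PORB, which reduces protochlorophyllide in the light, read 10.03, 9.29 and 8.80 in wounded rosettes, against 10.88, 10.30 and 10.41 in intact ones and fell by 1.16 ± 0.23, not without the block (adjusted p = 0.12). CHLM fell by 0.34 ± 0.10, and lost its call without the block (0.17) and in each of the 6 fits without 1 light array (at most 0.13, without the intact array of experiment 2). GI of the clock (-0.11 ± 0.25) and HYH of light signalling (0.10 ± 0.26) did not pass, nor did the other tested members of that group, and 0 of 4 had an unadjusted limma p under 0.05. No tested F-box gene of 6 passed in limma with or without the block, with 1 at an unadjusted p under 0.05.

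The wound effect in the light was set beside that in the dark, from the other 6 arrays of the same experiments. Of the 1560 rises in the light 1524 (97.7%) had the same sign in the dark and 1074 (68.8%) were called higher there too, where 9.08% of all probe sets were. Of the 2139 falls 2022 (94.5%) had the same sign and 642 (30.0%) were called lower, where 5.98% of all were. Among the 1232 probe sets called higher in the dark 63.9% had the larger rise in the light, and of the 811 called lower there 53.0% had the larger fall in the light. The shares of equal sign and of larger change in the light were not counted over all probe sets. Their median change was -0.15 in the light and -0.08 in the dark, so that falls in both were common. Some control probe sets read differently in the dark. There the 25S ribosomal control stood at a mean of 7.57 in wounded and 9.62 in intact rosettes, against 7.36 and 7.27 in the light. In the same order GAPDH stood at 12.85 and 12.87 in the dark, against 13.24 and 13.28 in the light. Actin stood at 11.85 and 11.94 in the dark, against 12.24 and 12.44. Ubiquitin was alike, at 14.64 and 14.55 against 14.57 and 14.57. The part of these controls in the results was not tested.

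The difference between the wound effects in light and dark was itself tested and passed for 5 probe sets (0.0369%), 3 with a higher and 2 with a lower change in the light. AT5G38700 read 8.09, 8.11 and 8.25 in wounded rosettes, against 2.84, 2.80 and 2.78 in intact ones, and in the dark 6.24, 6.72 and 6.69 wounded and 2.81, 2.83 and 2.85 intact. Set against log2 4 it was at least 17.8-fold higher in wounded rosettes in the light. The fitted difference between light and dark was 1.62 ± 0.18 (adjusted p = 0.022), and since both intact groups stood below log2 4 it rests on the wounded levels. AT4G29610 read 4.65, 4.83 and 4.51 in wounded rosettes, against 2.43, 2.47 and 2.35 in intact ones, at least 1.58-fold higher than log2 4. All 6 arrays in the dark stood below log2 3, so that the wounded arrays in the light alone were above log2 4. The probe set passed the filter only through those arrays, the group in which it is high, so that its adjusted p is no more than a description. EXPB1 fell by 2.01 ± 0.12 in the light, and its change in the dark was -0.14 ± 0.12, where intact rosettes already read 4.50, 4.27 and 4.04. AT3G27540 rose less in the light (1.18 ± 0.14) than in the dark (2.81 ± 0.14), and its intact values in the dark were 5.24, 5.14 and 5.50. Its intact means were 7.24 in the light and 5.30 in the dark, and its wounded means 8.42 and 8.10. The difference thus lies mostly in the intact levels. Without the block AT4G29610 and AT5G38700 alone passed, and in limma without any 1 whole experiment none of the 5 did. Without a single light array the count was 1 (wounded array of experiment 1 or 2, or intact array of experiment 2), 2 (intact array of experiment 1), 7 (wounded array of experiment 3) or 28 (intact array of experiment 3). Genes with unequal effects that did not pass include 2 of those described above. WRKY22 changed by 4.28 in the light and 1.94 in the dark (difference 2.35 ± 0.49, adjusted p = 0.22), and AT5G59350 changed by -2.19 ± 0.25 in the light and -0.68 ± 0.25 in the dark (adjusted p of the difference = 0.27).

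**Figure D4:**
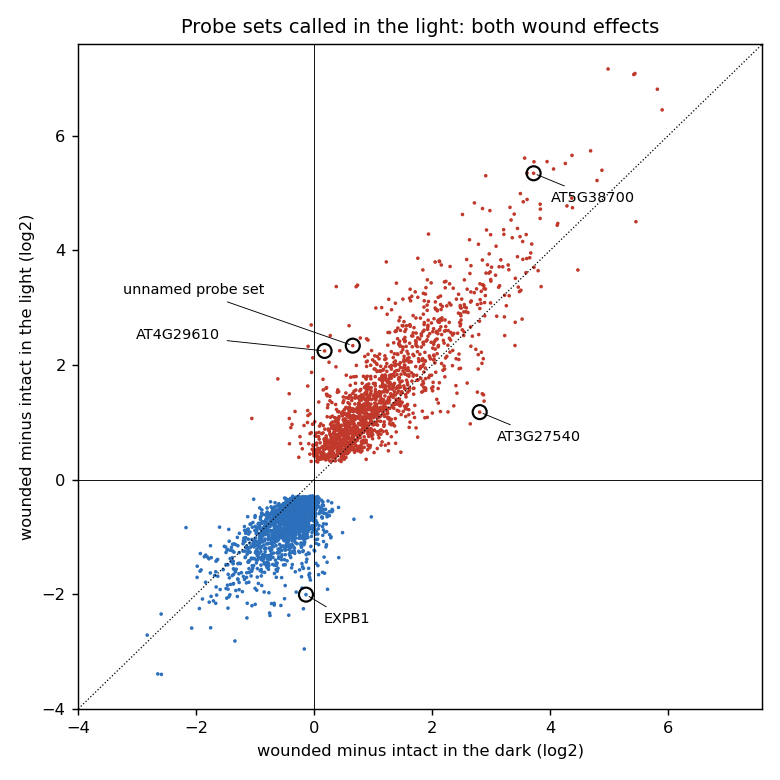
Wound effect (wounded minus intact, log2) in the light on the vertical axis against that in the dark on the horizontal axis, for the 3699 probe sets called in the light (red higher, blue lower), with equal effects on the dotted line. Circles mark the 5 probe sets whose difference between light and dark passed, among them AT3G27540 at 1.18 in the light and 2.81 in the dark.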

How the data were processed

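Affymetrix ATH1 arrays were hybridised with RNA of 12 rosette pools. The authors' deposited values are log2 intensities made with GCRMA, per the submitters' processing notes (no version given), and run from 1.46 to 15.85. They hold no detection calls. The 64 control probe sets and 9179 dim ones were left out, which left 13567. GEO's platform annotation gave 1 gene to 7275 of these, several to 292 and none to 6000, and RefSeq's table gave loci. Where several probe sets read 1 gene, the brightest stands for it.

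Limma 3.58.1 in R 4.3.3 was fitted to all 12 arrays with 4 group means and the experiment as a block (residual df 6, prior df 3.40), with eBayes and Benjamini-Hochberg adjustment, two-sided. Every adjusted p in the text is from this fit unless another is named. The pairing rests on the series description. After removal of group means, arrays of the same experiment correlated at 0.30 to 0.76. Arrays that differed in both experiment and group correlated at -0.47 to -0.07. With 3 arrays a group, centring ties positive values of the first kind to negative ones of the second, so that the contrast is in part fixed. The number of arrays limits precision: the median SE was 0.15, and 0.21 for the difference between light and dark.

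Named genes are the largest, brightest and newly measurable changes, the 3 largest called members of each of 47 gene groups (or, with no call, its 2 brightest), and the differences from the dark, 157 in all. A further 38 group members were named or listed after their values were seen. Gene groups hold only genes named in the annotation (493 tested) and some share members. Members and lists were chosen with earlier results of these data known. The fit was tested on simulated data. Alternatives tried were no block, median centring, both, the light arrays alone, other filters, a trended robust prior and leaving out arrays or experiments. No promoter or protein sequence was used here.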

Additional observations from a re-analysis of the deposited data

Results flagged for a closer look

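For 5 probe sets the wound effect in the light differed from that in the dark by a test of the difference itself (limma, adjusted over 13567 probe sets). The difference, light minus dark on the log2 scale, was 2.07 ± 0.16 for AT4G29610 (adjusted p = 0.0029), 1.68 ± 0.19 for a probe set with no named gene (0.022) and 1.62 ± 0.18 for AT5G38700 (0.022). It was -1.87 ± 0.17 for EXPB1 (0.009) and -1.63 ± 0.20 for AT3G27540 (0.036). For both genes light and dark differed more in the intact than in the wounded means. In light and dark EXPB1 stood at 6.54 and 4.27 intact, and at 4.54 and 4.13 wounded. AT3G27540 stood at 7.24 and 5.30 intact, and at 8.42 and 8.10 wounded. For AT4G29610 and AT5G38700 the intact means lay below log2 4 in light and dark, so that these differences rest on the wounded levels. AT4G29610 passed the filter only through the wounded arrays in the light, the group in which it is high. Its adjusted p is therefore no more than a description. The unnamed probe set read 10.90, 11.17 and 10.61 in wounded rosettes, against 8.48, 8.90 and 8.29 in intact ones, and in the dark 11.58, 11.84 and 11.85 wounded and 10.97, 11.35 and 10.98 intact. Its wounded mean in the light lay below all 3 intact values in the dark. Without the block AT4G29610 and AT5G38700 alone passed, and with any 1 experiment left out none did.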

How the results depend on the processing

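The replicate block decided how many probe sets passed. Without it 2015 passed in place of 3699, with 864 falls in place of 2139 and 2 differences from the dark in place of 5. With median centring and no block the counts were 1957, 776 and 2, and without a filter on dim probe sets 2 differences passed. Leaving out arrays or whole experiments gave 1656 to 3239 calls, 976 to 1476 rises, 680 to 1763 falls and 0 to 28 differences, the highest without the intact array of experiment 3. Fewer samples enter those fits. The counts of calls, rises and falls stayed within 1.5 times under the light arrays alone, median centring, no filter or one at log2 5, and a trended robust prior, and the rises also without the block. No named gene changed sign as a called result in any setting. Of the 149 calls among genes named by rule 33 were lost without the block and 27 in at least 1 of 6 fits without a light array. Of the 28 calls among members named later 15 and 13 were lost. Signal above background could not be judged, since no detection calls were used here.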

Other observations

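Some genes that lie next to each other on a chromosome rose together. Of 2130 pairs of adjacent genes with both members tested 52 were both higher (2.44%), 84 both lower and 46 opposite. Of the genes in these pairs 11.4% were higher. A gene can enter several pairs, as AT4G27654 does. In 27 pairs both rose at least 2-fold. CML38 and AT1G76640 (4.27 and 3.80), XTH18 and XTH19 (4.18 and 2.05), EXLA3 and EXLA1, AT4G27654 and AT4G27657, and AT4G27652 and AT4G27654 were such pairs, with log2 changes in brackets where both intact means were above log2 4, the first 3 of them within a gene family. These pairs were picked after their values were seen, and cross-hybridisation between close copies was not tested. Of 74 genes with several tested probe sets 63 had the same call in all and none had opposite calls.

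Beta-glucosidases were higher in 3 and lower in 1 of 11 tested cases, and without the block 1 was higher. BGLU15 read 5.06, 4.15 and 4.50 in wounded rosettes, against 2.59, 2.66 and 3.72 in intact ones, at least 1.48-fold higher with the intact mean set at log2 4. Starch and sucrose genes fell in 2 of 7 cases, and without the block none passed. APL3, a subunit of ADP-glucose pyrophosphorylase, read 8.22, 8.43 and 7.02 in wounded rosettes, against 8.33, 9.27 and 7.98 in intact ones and fell by 0.64 ± 0.17, a call lost in 4 of 6 fits without 1 light array (at most 0.093, without the intact array of experiment 2).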
